A study of Mus musculus with 2 samples.

Results

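Guanylate-binding proteins (GBPs) and immunity-related GTPases (IRGs) are large GTPases that cells make in quantity after interferon gamma, and 10 of them were described here in mammary basal cells: *Gbp2*, *Gbp3*, *Gbp5*, *Gbp6*, *Gbp7* and *Gbp9* of the first family, and *Irgm1*, *Irgm2*, *Igtp* and *Iigp1* of the second. They were taken by name from a table of raw read counts of 49492 genes, and all 10 were found. They were picked with their values in these same libraries already known, so their differences are a description and carry no test. All 10 passed the filter used for every gene, at least 20 counts summed over both libraries, which left 17356 genes.

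Basal cells, which contract to move milk and surround the luminal cells of the mammary gland, were sorted as cells without blood and endothelial markers, with CD24 and with high CD29. Both groups came from wild-type adult female mice and were labelled day 7. The CL basal group had received clodronate liposomes, vesicles that kill the macrophages that take them up, by intraperitoneal injection, and the Ctrl basal group is labelled as having no treatment, while the series design names saline. Each group had 1 library, and the number of mice behind it is not given in the sources used here. The libraries held 38962512 counts (CL basal) and 37846008 counts (Ctrl basal). Without replicates no difference below has a replicate check, and the 95% intervals cover counting error between these libraries only. In bulk RNA, a change in the number of cells of a type and a change in RNA per cell cannot be told apart.

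Interferon gamma binds a receptor of *Ifngr1* and *Ifngr2*, which signals through the kinases JAK1 and JAK2. The promoters of genes that respond to it often hold GAS and ISRE sites, and IRF1 binds the latter. The induced GBPs and IRGs assemble on membranes around intracellular bacteria and parasites. The IRGs fall into effectors such as Iigp1 (also Irga6), which attack the pathogen vacuole, and the regulators Irgm1, Irgm2 and Igtp (also Irgm3), which keep the effectors off the membranes of the cell itself.

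The promoters are shown first, since their sequence was not read to choose the members. The members were named as interferon gamma inducible genes, however, and such genes often hold GAS and ISRE sites. The shares below are therefore not independent of the choice. RefSeq promoters on GRCm38.p6, from 250 bases before to 50 bases after the start site, were at hand for 7 of the 10 genes. They were searched on both strands for an ISRE core, GAAANNGAAA, and for a GAS core, TTCNNNGAA, which is its own reverse complement. The 7 genes had 8 promoters. The ISRE core was found in 7 of the 8, against 3.44% of all 32851 promoters of that length, the exception being the second promoter of *Gbp3*. Counted by gene, it was found in 7 of 7, against 3.99% of 27025 genes. Each line below gives 30 bases on the strand of the gene with the ISRE core in capitals (TTTCNNTTTC is the same core on the other strand). Where 2 cores overlapped, in *Gbp3* and *Irgm1*, the first is shown.

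*Gbp2*, chr3:142620594-142620623, plus strand: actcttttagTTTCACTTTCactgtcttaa

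*Gbp3*, chr3:142559989-142560018, plus strand: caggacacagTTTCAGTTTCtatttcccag

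*Gbp5*, chr3:142496759-142496788, plus strand: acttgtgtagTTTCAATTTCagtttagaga

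*Gbp7*, chr3:142530273-142530302, plus strand: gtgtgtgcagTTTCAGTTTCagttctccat

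*Irgm1*, chr11:48871431-48871460, minus strand: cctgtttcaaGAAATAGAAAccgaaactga

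*Irgm2*, chr11:58214903-58214932, plus strand: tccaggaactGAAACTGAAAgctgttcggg

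*Igtp*, chr11:58199512-58199541, plus strand: tctaggaactGAAACTGAAAgctgttcggg

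In the 4 GBPs the core lay on the opposite strand to that in the 3 IRGs. It began 59 bases before the start site in *Gbp2*, 53 in *Gbp7*, 45 in *Gbp3*, 64 in *Irgm2*, 34 in *Igtp* and 30 in *Irgm1*, and farther away, at 165 bases, in *Gbp5*. A GAS core was present in 4 of the 8 promoters, those of *Gbp5*, *Gbp7*, *Igtp* and *Irgm2*, against 8.30% of all promoters. In *Igtp* and *Irgm2* it ended 2 bases before the ISRE, as the next windows show with the GAS core in capitals.

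*Igtp*, chr11:58199500-58199529, plus strand: aaactagccatTTCTAGGAActgaaactga

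*Irgm2*, chr11:58214891-58214920, plus strand: aaactagccatTTCCAGGAActgaaactga

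These promoters are not separate cases. Those of *Igtp* and *Irgm2* could be aligned over 271 columns with 91.1% identity. The ISRE core was also found in 5 of 9 further IRGs and in 10 of 17 genes known mainly from type I interferon, so it is not particular to the members. It was found in 3 of 17 interferon gamma targets that are not GTPases, in 2 of 15 signalling genes and in 0 of 3 atlastins. The GAS core was found in 4 of 9 further IRGs, 3 of 17 of those targets and 5 of 15 signalling genes. A match of letters is a description and does not show that a factor was bound.

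Before any comparison, the levels were set side by side in TPM, counts per exonic length scaled to the same total in each library. *Gbp2* was the most abundant member in both libraries, with 80.5 TPM in Ctrl basal and 184 TPM in CL basal, and *Gbp3* (59.0 and 106 TPM), *Iigp1* (34.1 and 73.0 TPM) and *Igtp* (27.0 and 58.4 TPM) followed in that order in both. The counting intervals of these 4 genes did not overlap within a library. *Gbp6* came next, at 17.5 TPM in Ctrl basal and 28.6 TPM in CL basal. The other 5 ran from 9.31 to 17.2 TPM in Ctrl basal and from 16.0 to 21.1 TPM in CL basal. Their order was resolved only in part. In Ctrl basal the interval of *Gbp9* overlapped that of *Gbp6*, and those of *Irgm1*, *Gbp7* and *Irgm2* overlapped from neighbour to neighbour. In CL basal *Gbp7* stood above *Gbp9*, *Gbp5*, *Irgm1* and *Irgm2*, whose intervals overlapped from neighbour to neighbour. The members together held 279 TPM in Ctrl basal and 538 TPM in CL basal, and *Gbp2* alone made up 28.8% and 34.2% of these sums. TPM rests on the exonic length given for each gene in the table.

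**Figure D1:**
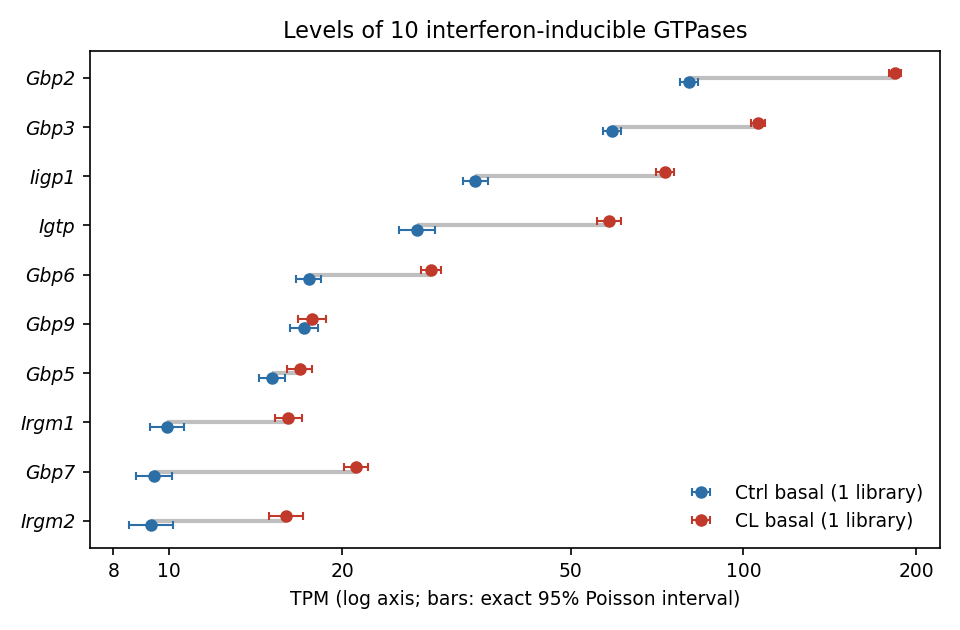
Level of each member in TPM (log axis) in Ctrl basal (blue) and CL basal (red), 1 library each, with exact 95% Poisson intervals for counting error; grey lines join the libraries. The 4 most abundant genes keep their order, and the points of *Gbp5* and *Gbp9* lie close together.

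After scaling by the trimmed mean of M-values, the log2 fold change of CL basal over Ctrl basal was above 0 for all 10 members, with 9 intervals above 0, and the values fell into 3 tiers. The exception was *Gbp9*, whose value was -0.014 with scaling by total counts. *Gbp2*, *Gbp7*, *Igtp* and *Iigp1* were at least 2-fold higher, *Gbp3*, *Irgm2*, *Gbp6* and *Irgm1* were 1.5-fold to 2-fold higher, and *Gbp5* and *Gbp9* differed little. Of all tested genes, 2.07% were at least 2-fold higher, 6.33% at least 1.5-fold higher and 48.2% above 0, while 4.79% were at least 2-fold lower and 11.7% at least 1.5-fold lower. The members all had over 1000 counts, where ratios scatter less. Of the 7097 genes with at least that many, 0.155% were at least 2-fold higher, 1.04% at least 1.5-fold higher and 57.7% above 0, while 0.535% were at least 2-fold lower and 2.21% at least 1.5-fold lower. Nothing is read from these shares, because the members were chosen on this contrast. The counts of the 10 genes summed to 25445 in CL basal against 14243 in Ctrl basal, which gives a log2 fold change of 0.83 (95% interval 0.80 to 0.86), and their median was 0.79, beside a median of -0.01 for all tested genes.

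In the upper tier, *Gbp2* (chromosome 3, 142620602 to 142638008, GRCm38), which coats parasite and bacterial membranes, reached 6534 counts in CL basal against 2899 in Ctrl basal. This is 2.25-fold, or 1.17 on the log2 scale (exact 95% interval from the binomial share of reads, 1.11 to 1.23). *Gbp7* (chromosome 3, 142530342 to 142550149) reached 1678 counts against 757, or 1.14 on the log2 scale (1.02 to 1.27). Thus the most and the least abundant member GBPs of control cells differed by nearly the same factor. *Igtp* (chromosome 11, 58199556 to 58207591), a regulator found at the endoplasmic reticulum, reached 1671 counts against 783, or 1.09 (0.97 to 1.21). *Iigp1* (chromosome 18, 60376029 to 60392627), the effector IRG among the members, reached 3223 counts against 1525, or 1.07 (0.99 to 1.16). The intervals of all 4 genes overlapped, so no order among them can be read at this depth, and those of *Igtp* and *Iigp1* reached below 2-fold. With halved counts, tried because both mates of a fragment may have been counted, that of *Gbp7* did too (0.97 to 1.33), and of the 4 only *Gbp2* (1.08 to 1.26) lay wholly above 2-fold.

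In the middle tier, *Gbp3* (chromosome 3, 142560026 to 142573209) reached 4894 counts in CL basal against 2760 in Ctrl basal, a log2 difference of 0.82 (0.76 to 0.89). *Irgm2* (chromosome 11, 58199618 to 58222782), a regulator of the Golgi, reached 834 against 492, or 0.76 (0.60 to 0.92). *Irgm1* (chromosome 11, 48861968 to 48871683), which mice need to resist many intracellular bacteria, reached 1325 against 826, or 0.68 (0.55 to 0.81). The interval of *Irgm2* ended below that of *Igtp*, but with halved counts the intervals overlapped (0.53 to 0.99 and 0.92 to 1.27). Those of *Gbp3* (0.73 to 0.92) and *Igtp* then overlapped too, so the upper and middle tiers are not fully separated. *Irgm2* and *Igtp* also share 162 exonic bases. *Gbp6* (chromosome 5, 105270702 to 105293698) reached 2404 counts against 1491, or 0.68 (0.59 to 0.78), and it is the least certain member. Of its distinct 50-base words, 70.7% also occur in transcripts of other genes, mainly *Gm43302*, which shares 1726 of its 5954 exonic bases and had 2409 and 1476 counts. The other 9 members shared 0.38% (*Irgm1*) to 12.7% (*Gbp7*) of their words with other genes.

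*Gbp5* and *Gbp9* stood apart from the rest. *Gbp5* (chromosome 3, 142493978 to 142522344), known for promoting inflammasome assembly in macrophages, stood at 1585 counts in CL basal against 1438 in Ctrl basal, a log2 difference of 0.14 (0.03 to 0.24). *Gbp9* (chromosome 5, 105077630 to 105139539) stood at 1297 against 1272, or 0.02 (-0.09 to 0.14), so no difference was detectable at this depth. With halved counts the interval of *Gbp5* also reached across 0 (-0.012 to 0.28). Their intervals ended far below those of the other 8 members. *Gbp5* carries an ISRE core and 2 GAS cores in its promoter, and *Gbp9* had no promoter entry.

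**Figure D2:**
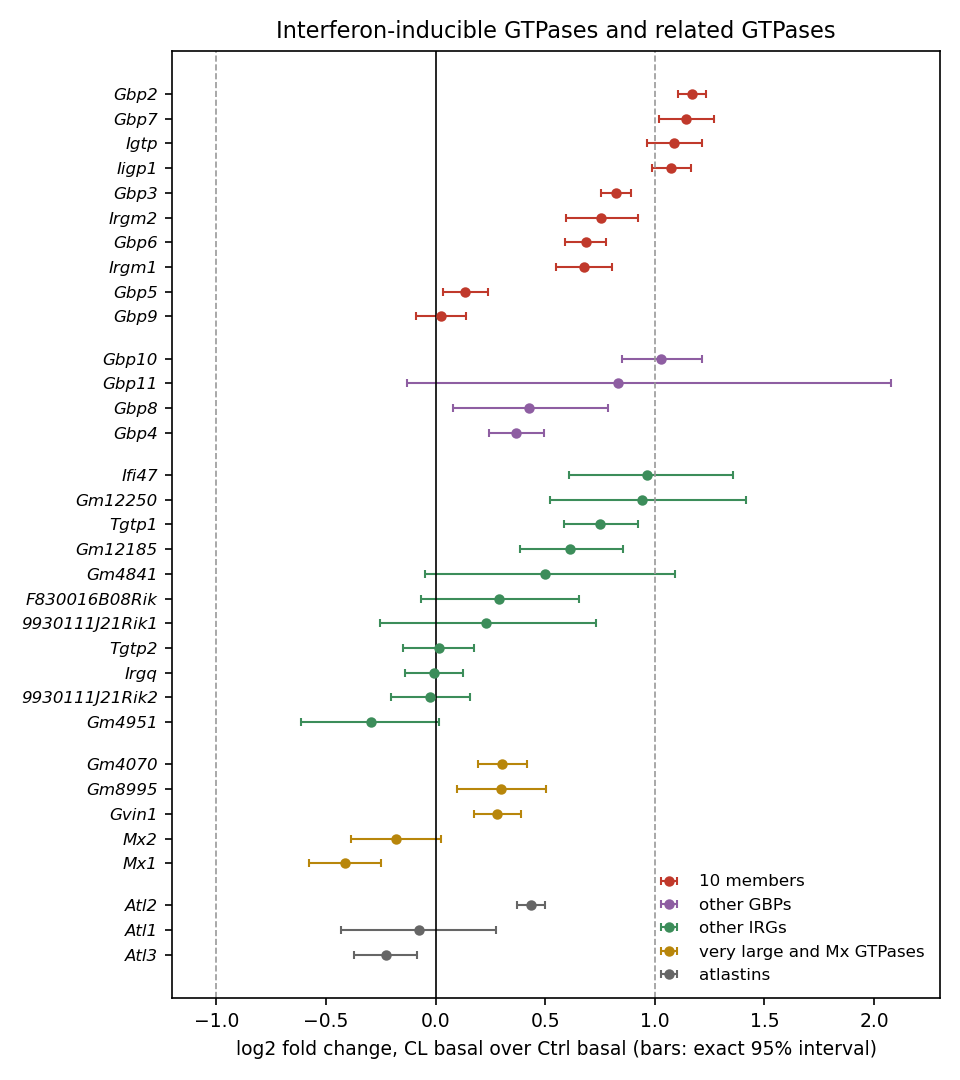
Log2 fold change of CL basal over Ctrl basal for each tested GTPase (points) with exact 95% intervals for counting error (bars), for the 10 members and 4 groups of related GTPases; dashed lines mark 2-fold. The members form tiers near 1.1, near 0.7 and near 0, and *Mx1* and *Atl3* lie below 0.

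The genes of both families that are not members are described next. They are what the choice of members left over, and they were listed with earlier results known, so they are not an independent view. Of 5 further GBPs in the table, 4 could be tested, and all 4 were above 0, with a median of 0.63 and 1 gene past 2-fold. *Gbp10* reached 748 counts in CL basal against 365 in Ctrl basal, a log2 difference of 1.03 (0.85 to 1.22), but 84.1% of its 50-base words occur in other genes, mostly *Gbp6*. *Gbp4* had 1217 and 940 counts (0.37, 0.24 to 0.49), and *Gbp8* had 161 and 119 (0.43, 0.08 to 0.79, and -0.07 to 0.95 with halved counts). *Gbp11* had 23 and 12 counts, too few to give its ratio a sign. *Gbp2b*, the neighbour of *Gbp2* that was long called *Gbp1*, had 1 and 2 counts, below the 3 counts that an observed 0 still leaves possible, although its promoter holds an ISRE core and its neighbours *Gbp3* and *Gbp2* were the most abundant members.

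Of 13 further IRGs, 11 were tested, 8 above 0 and 3 below, beside 48.2% of all tested genes above 0. The median of these IRGs was 0.29, none was past 2-fold, and 4 intervals lay above 0 and 0 below. The highest were *Ifi47* (Irgd), with 182 counts in CL basal against 92 in Ctrl basal (0.97, 0.61 to 1.36), and *Gm12250* (Irgb10), with 127 and 65 counts (0.94, 0.52 to 1.42). Irgb10 is known to break open bacteria targeted by GBPs. *Tgtp1* had 764 and 452 counts (0.75, 0.58 to 0.92), whereas *Tgtp2*, its near copy, had 633 and 625 (0.01, -0.15 to 0.18). Since 81.2% of the words of *Tgtp1* and 86.6% of those of *Tgtp2* occur in other genes, mainly each other, how the reads were split between them is uncertain. The promoter of *Ifi47* held neither core, and those of *Tgtp1* and *Tgtp2* held both. *Irgq*, a member of the family that is not known as inducible, had 949 and 951 counts (-0.01, -0.14 to 0.12). Also below 0 were *Gm4951*, the lowest, with 155 and 190 counts (-0.29, -0.61 to 0.02), and *9930111J21Rik2*, with 508 and 515 (-0.02, -0.20 to 0.16).

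More distant GTPases were measured as well. *Gvin1*, *Gm4070* and *Gm8995*, the very large inducible GTPases, lay between 0.28 and 0.30. *Mx1*, an antiviral GTPase best known from type I interferon, was lower in CL basal, with 534 counts against 709 (-0.41, -0.58 to -0.25). The atlastins, structural relatives of GBPs that shape the endoplasmic reticulum and are not known as interferon genes, went both ways, from -0.23 (*Atl3*) to 0.44 (*Atl2*).

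The members lie in clusters, and their position was not used to choose them. On chromosome 3, *Gbp5*, *Gbp7*, *Gbp3*, *Gbp2b* and *Gbp2* follow one another over 144 kb, so that the low value of *Gbp5* and the 3 high ones stand side by side. On chromosome 5, *Gbp9*, *Gbp4*, *Gbp10* and *Gbp6* lie within 216.1 kb. Within 500 kb of the members, 45 tested genes of neither family shared no exonic bases with a member. Their median log2 fold change was 0.01, with 23 above 0 and 2 at least 2-fold higher. Both of those lie near *Iigp1* and are *Cd74* and *Mir5107*, a microRNA gene inside it. Around the GBP clusters, 0 of 9 such neighbours reached 1.5-fold in the higher direction.

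**Figure D3:**
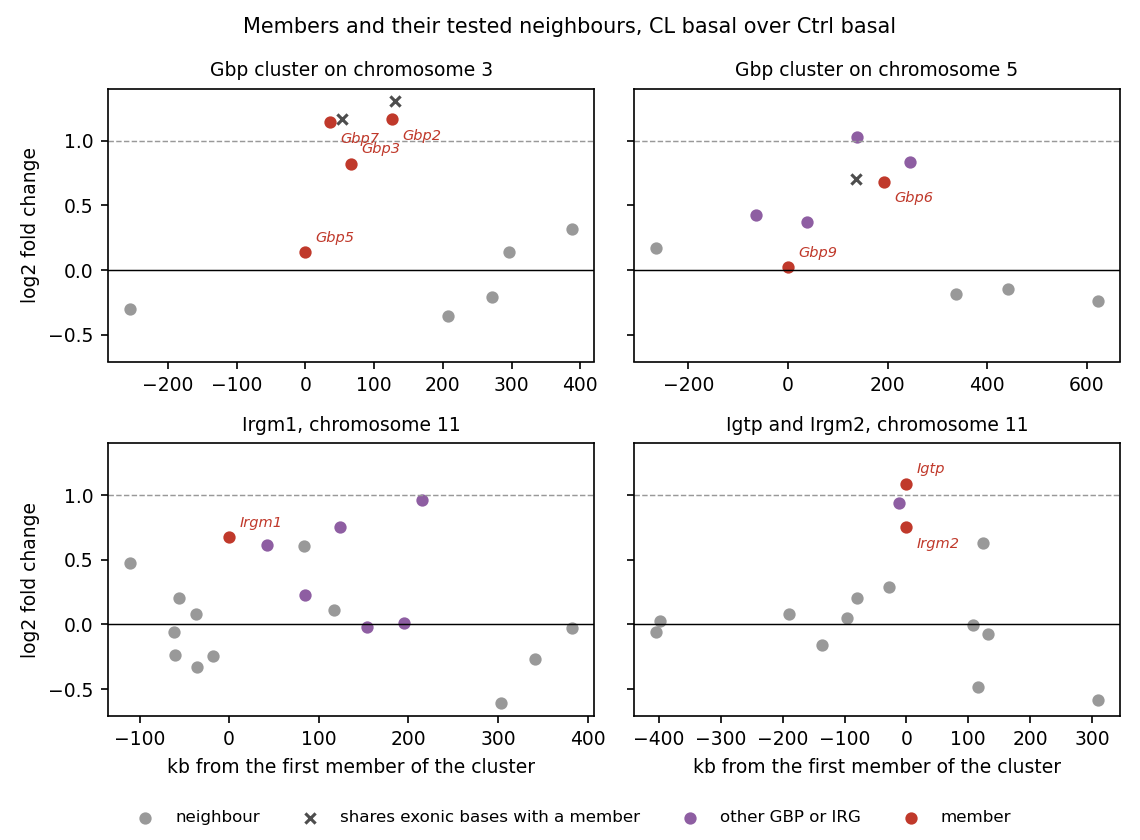
Log2 fold change of CL basal over Ctrl basal (vertical) against distance in kb from the first member (horizontal) for members (red), other GBPs and IRGs (purple), genes that share exonic bases with a member (crosses) and other tested neighbours (grey) at 4 loci. The red and purple points lie mostly above the grey ones, while *Gbp5* and *Gbp9* lie close to 0.

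The pathway upstream of the members was compared next. *Ifng* itself had 2 counts in CL basal against 4 in Ctrl basal, so its mRNA was near the limit of detection in both libraries. The cells were sorted without blood markers, so these counts do not show how much of the cytokine the tissue held. The receptor chains were level, *Ifngr1* with 1899 and 1800 counts (0.07, -0.02 to 0.17) and *Ifngr2* with 711 and 737 (-0.06, -0.21 to 0.10). The kinase *Jak1* had 13048 and 12495 counts (0.06), and *Jak2* had 5641 and 6524 (-0.21, -0.27 to -0.16). The transcription factors *Irf9* and *Irf1* lay higher in CL basal, *Irf9* with 1885 and 1283 counts (0.55, 0.45 to 0.65) and *Irf1* with 4477 and 3352 (0.41, 0.35 to 0.48). *Irf8* did not stand out (0.04, -0.12 to 0.20). The inhibitors *Socs1* (164 and 109 counts, 0.58, 0.23 to 0.95) and *Socs3* (23516 and 16755 counts, 0.49) were higher as well. In all, 14 of 16 tested signalling genes were above 0, with a median of 0.14 and none past 1.5-fold. Of the 14 with at least 1000 counts 12 were above 0, beside 57.7% of all genes that abundant.

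Of 26 tested interferon gamma targets that are not GTPases, 24 were above 0, 6 were at least 2-fold higher and 0 at least 2-fold lower, with a median of 0.40. The 6 were the MHC class II chain genes *H2-Ab1* (2.54), *H2-Aa* (1.99) and *H2-Eb1* (1.60), their invariant chain *Cd74* (1.90), the peptide transporter subunit *Tap1* (1.21, 1330 and 574 counts) and *Nlrc5* (1.05, 1646 and 793 counts), an activator of MHC class I genes. *Cxcl9*, a chemokine that is induced mainly by interferon gamma, had 1209 and 800 counts (0.59, 0.46 to 0.72). The chemokine gene *Cxcl10* had 432 and 389 counts (0.15, -0.05 to 0.35). The 2 targets below 0 were *Ido1* (228 and 338 counts, -0.57, -0.82 to -0.33) and *Nos2* (34 and 55 counts, -0.67). Genes known mainly from type I interferon were mixed, with 15 of 21 above 0, 2 at least 2-fold higher (*Oasl2* and *Oas1a*) and 1 at least 2-fold lower (*Oasl1*). Beside both lists, 48.2% of all tested genes were above 0, 2.07% at least 2-fold higher and 4.79% at least 2-fold lower.

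Among the 7097 genes with at least 1000 counts, 11 were at least 2-fold higher in CL basal, a set named after its values were seen. They were *H2-Ab1*, *Cd74*, *H2-Eb1*, *Oasl2*, *Tap1*, *Gbp2*, *Gbp7*, *Igtp*, *Iigp1*, *Nlrc5* and *Gbp10*, in falling order of ratio. Of these, 4 are members, chosen on this contrast, 5 stand on the list of interferon gamma targets, and *Gbp10* shares most of its words with *Gbp6*. At the same abundance, 38 genes were at least 2-fold lower.

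**Figure D4:**
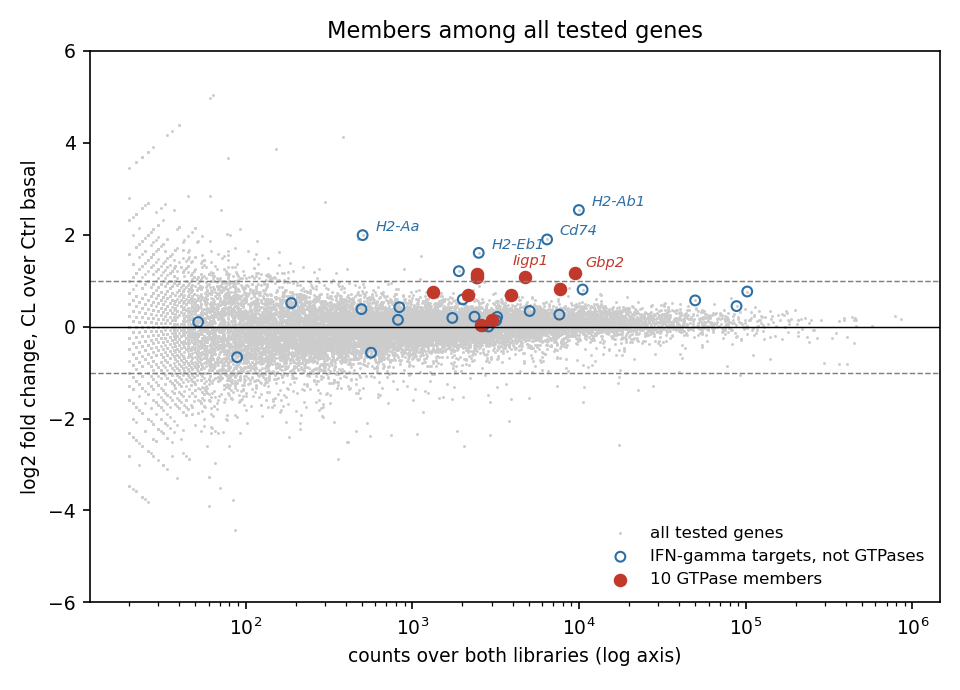
Log2 fold change of CL basal over Ctrl basal against counts over both libraries (log axis) for all 17356 tested genes (grey), the members (red) and other interferon gamma targets (blue circles); dashed lines mark 2-fold. At the abundance of the members the grey points are close to 0, with *Gbp2* and *Iigp1* above the upper line and the MHC class II genes higher still.

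Genes whose proteins GBPs and IRGs act with were compared last. Autophagy conjugation proteins place the GTPases on the right membranes. A list of 13 genes, made up of these, the ATG8 proteins and the autophagy adaptors *Sqstm1* and *Ubqln1*, ran from -0.18 to 0.19 with a median of 0.03. Of 8 tested inflammasome genes, 5 were above 0, with a median of 0.14, 4 intervals above 0 and 2 below. The most abundant, *Casp8*, had 1610 and 1781 counts (-0.15, -0.25 to -0.05). *Il1b* was the highest, with 132 and 86 counts (0.60, 0.21 to 1.02), followed by *Gsdmd*, the pore-forming protein of pyroptosis, with 231 and 167 (0.46, 0.17 to 0.76). *Casp4*, the caspase-11 gene that GBPs help to activate, reached 984 counts in CL basal against 806 in Ctrl basal (0.28, 0.15 to 0.42). *Casp1* came next, with 362 and 303 counts (0.25, 0.03 to 0.48), and with halved counts its interval spanned 0 (-0.06 to 0.58). The DNA sensor *Aim2* was lower, with 25 and 75 counts (-1.52, -2.30 to -0.92).

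Markers of other cell types were measured because macrophages, endothelial cells and lymphocytes also express these GTPases. The 13 basal and myoepithelial markers had the highest sum of the marker lists in both libraries, with 21275 CPM (counts scaled to library size) in CL basal and 20377 CPM in Ctrl basal, as the label says. The 10 endothelial markers summed to 487 CPM in CL basal and 611 CPM in Ctrl basal, and *Pecam1*, the gene of a surface protein sorted against, had 4266 and 5503 counts. The 17 macrophage markers summed to 40.6 and 48.6 CPM, with 3 of 10 tested genes above 0. Their difference lay mainly in *Cd14* (468 and 748 counts), since the other 16 genes summed to 1094 and 1116 counts. Among the tested macrophage markers, 2 had intervals above 0, *Mertk* (421 and 353 counts) and *Mpeg1* (88 and 28, past 2-fold), and 3 had intervals below 0, *Cd14*, *Cd68* (185 and 233) and *Mrc1* (86 and 168). The intervals of the other 5 spanned 0, namely *Csf1r* (89 and 64), *Itgam* (52 and 55), *Lyz2* (118 and 138), *C1qa* (12 and 16) and *C1qc* (6 and 16, past 2-fold lower). With halved counts the intervals of *Mertk* (-0.04 to 0.55) and *Cd68* (-0.75 to 0.07) spanned 0 too. Of the 7 too low to be tested, *Adgre1* (10 and 7), *Cx3cr1* (8 and 6) and *Cd163* (11 and 6) had more counts in CL basal, and *C1qb* (6 and 12), *Tyrobp* (2 and 6), *Fcer1g* (0 and 6) and *Ms4a7* (0 and 2) had fewer. For dendritic cells the 9 markers summed to 22.4 and 25.5 CPM, and without *Zbtb46* (596 and 716 counts) the other 8 summed to 264 and 263 counts, with *Ccr7* (81 and 53) and *Xcr1* (26 and 14) higher in CL basal and *Itgax* (18 and 42) and *Clec9a* (75 and 92) lower. The intervals of *Xcr1* and *Clec9a* spanned 0, and with halved counts that of *Ccr7* did too (-0.13 to 1.39).

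The 14 T and NK cell markers summed to 26.8 CPM in CL basal and 26.0 CPM in Ctrl basal, with *Ptprc* (CD45) at 521 and 537 counts and with *Ncr1* and *Klrb1c* at 0 in both. B and plasma cell markers were higher in CL basal, 19.3 against 14.7 CPM over 8 genes. The 13 luminal markers were all lower (3296 and 5321 CPM), and so were 8 of 9 fibroblast markers (222 and 274 CPM in sum). Of the epidermal markers, *Krt1* had 367 and 19 counts and *Krt10* had 262 and 38, while *Sbsn* had 615 and 1196, so that the list of 10 summed to 36.5 and 34.9 CPM but the other 9 genes to 788 and 143 counts. The part of these differences between marker lists in the values of the members was not tested.

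**Figure D5:**
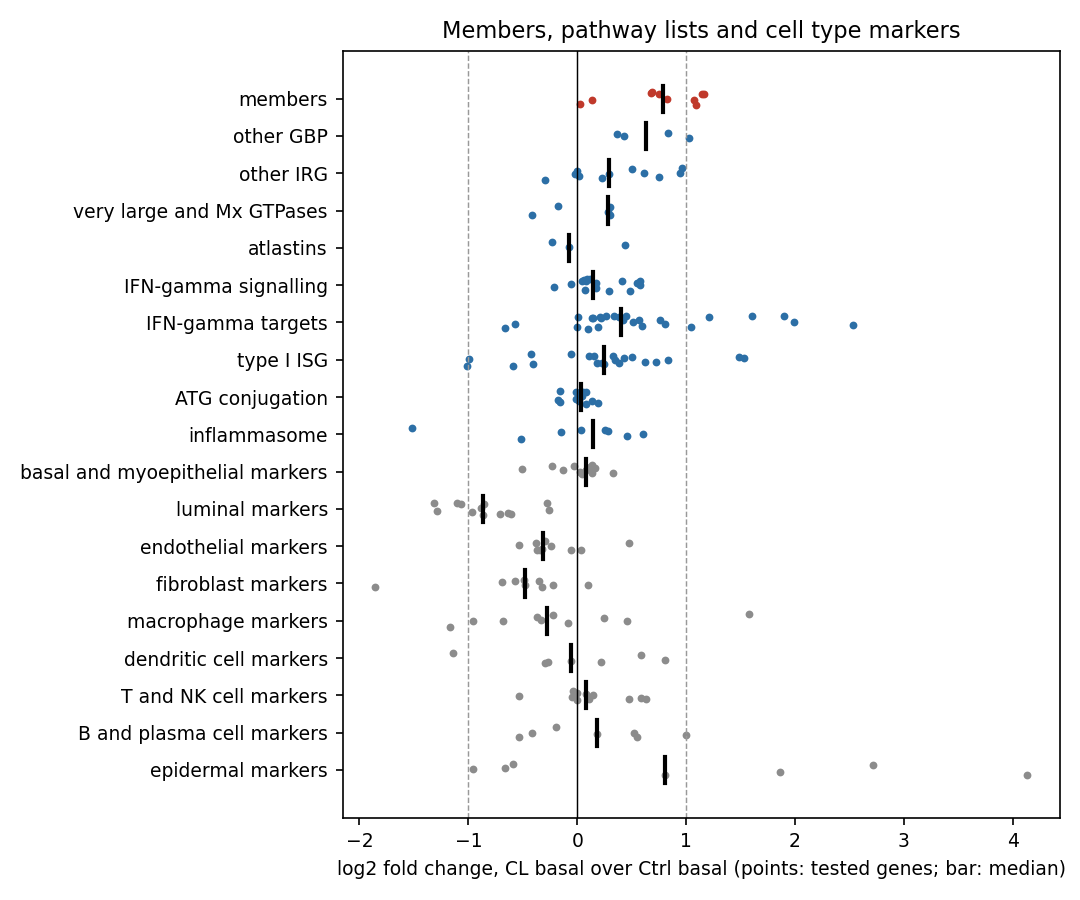
Log2 fold change of CL basal over Ctrl basal for the tested genes of each list (points) with the median (black bar), for the members (red), related GTPases and pathway lists (blue) and cell type markers (grey); dashed lines mark 2-fold. The members have a median of 0.79, the luminal markers one of -0.86 and the endothelial markers one of -0.31.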

How the data were processed

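RNA of sorted mammary basal cells was sequenced from CL treated and control mice, 1 library per group. The deposited values were raw counts per gene over annotated exons, not normalized, in the column layout of featureCounts, on GRCm38 (mm10) per the labels. The aligner, annotation release and use of strand are not given in the sources used here, so values of overlapping genes are uncertain. The exonic length in bases was deposited with the counts. A deposited ratio and its log2 hold the authors' own comparison and were not used.

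Effective library sizes came from the trimmed mean of M-values in edgeR 4.0.16 (R 4.3.3), over genes with at least 20 counts. For log2 fold changes, 2 prior counts, scaled to each library, were added. Intervals are exact (Clopper-Pearson for ratios, Poisson for TPM, scipy 1.17.1). With 1 library per group, genes are described by folds of 2 and 1.5 and no p-value is given. Depth sets the precision: 3 counts, the limit that a count of 0 allows, are 0.078 CPM. Of the values from 1 to 20, 68.8% (CL basal) and 67.9% (Ctrl basal) were even, so mates appear to have been counted separately and intervals are too narrow. Shared 50-base words were counted in GENCODE M21 transcripts on both strands. The members and lists were chosen with earlier results of these data known. All members, the measured genes of the other GBP, other IRG and signalling lists, and from other lists those past 2-fold, with the most counts, or acting as ligands, receptors or defining markers could be named. Other names (*Ido1*, *Nos2*, *Mx1*, *Gm4070*, *Gm8995*, *Atl3*, *Il1b*, *Gsdmd*, *Casp1*, *Casp4*, *Mir5107*) were chosen after their values were seen. *Gbp1*, *Gbp13* and *Gm17757* were listed but matched no name. Alternatives were other scalings (total counts, DESeq2 1.42.0 size factors, upper quartile), prior counts, filters, trend removal, halved counts, thinning and a fold of 1.5. One gene of the signalling list is counted but not reported here.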

Additional observations from a re-analysis of the deposited data

How the results depend on the processing

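The number of members at least 2-fold higher in CL basal was 4 under each of the scalings, prior counts, filters, halved counts, thinning and trend removal tried, and 8 at a fold of 1.5, a looser threshold by construction. The log2 fold change of the summed counts, 0.83, was 0.80 (0.795) with scaling by total counts and 0.80 (0.803) with the trend on mean expression removed, both just outside its interval. The median, 0.79, stayed between 0.68 and 0.91, the means of the lower and upper interval ends of the middle genes *Irgm2* and *Gbp3*. This range is not an interval of the median itself. Of 100 values of single members under alternatives, 98 stayed within the main interval. *Gbp2* (1.10) and *Gbp3* (0.75) moved below theirs with the trend removed, and *Gbp9*, within its interval, turned to -0.014 with total counts, a scaling that shifts all genes alike. The count of all genes at least 2-fold higher, 360, was 1342 without a filter and 65 with at least 100 counts, since the genes tested changed. Without *Gbp6*, an alternative chosen after seeing the data, the median was 0.82. No paired analysis was possible because CL basal and Ctrl basal were single libraries, and for the same reason no replicate could be left out. Depth limits *Gbp11*, *Gbp2b* and *Ifng*.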
